A study of Homo sapiens with 30 samples.

Results

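The 7 genes described here, AKR1B10, AKR1B1, AKR1C1, AKR1C2, AKR1C3, AKR1A1 and AKR7A2, encode aldo-keto reductases and were taken by name from the 60675 gene rows of the deposited table. Each symbol matched 1 row, and all 7 genes were among the 16083 that passed the filter on low counts. The smallest count of any of them in any library was 725, so none passed through 1 group only. They were followed in HepG2, an established human liver cancer cell line, by stranded RNA sequencing of 30 libraries in 13 groups. Ethanol extracts of 4 herbal formulas were given for 24 h at 500 µg/mL (high), 100 µg/mL (medium) or 20 µg/mL (low). At each dose there were 3 libraries for Palmul-tang and for Sibjeondaebo-tang, 2 for Samul-tang (labelled replicates 2 and 3) and 1 for Sagunja-tang (labelled replicate 3). The 3 vehicle libraries received DMSO, which the sample labels give as 0.1% and the series design text as 2%. All groups are of this 1 cell line. Whether replicates came from separate cultures is not given in the labels, so the p-values reflect only the spread among these libraries, which may be technical in origin.

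Aldo-keto reductases use NADPH to turn aldehydes and ketones into alcohols. AKR1B10 reduces retinal and lipid aldehydes and is known for its high level in liver cancer, while its relative AKR1B1, aldose reductase, feeds glucose into the polyol pathway. The AKR1C enzymes are hydroxysteroid dehydrogenases: AKR1C1 inactivates progesterone, AKR1C2 inactivates dihydrotestosterone, and AKR1C3 makes testosterone from androstenedione and also acts on prostaglandins. AKR1A1, aldehyde reductase, handles glucuronate, and AKR7A2 reduces succinic semialdehyde and aflatoxin dialdehyde. AKR1B10 and the AKR1C genes are known targets of NRF2, a transcription factor that binds antioxidant response elements in genes of redox and carbonyl metabolism.

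The genes lie in clusters, and close copies share reads. On GRCh38 with GENCODE 29, AKR1B10 spans positions 134527592 to 134541408 of chromosome 7, forward strand. AKR1B1 spans 134442350 to 134459284 of the same chromosome on the reverse strand. On chromosome 10, AKR1C1 spans 4963253 to 4983283 on the forward strand, AKR1C2 4987400 to 5018031 on the reverse strand and AKR1C3 5035354 to 5107686 on the forward strand. AKR1A1 spans 45550543 to 45570049 on the forward strand of chromosome 1, and AKR7A2 spans 19303965 to 19312146 on its reverse strand. The coding sequences of AKR1C1 and AKR1C2 were identical at 953 of 972 bases (98.0%). AKR1C3 matched AKR1C1 at 91.5% and AKR1C2 at 91.0% of bases. AKR1B10 matched AKR1B1 at 76.1% and AKR1B15, its nearest copy, at 85.1% of alignment columns, in which gaps count as differences. The AKR1B15 coding sequence is the longer of that pair, at 1035 bases against 951, and 881 bases were identical. A stretch as long as 1 read (100 bases) shows part of what the counting had to divide. Reads came in pairs, and no stretch was taken from outside the 972 coding bases. The AKR1C1 and AKR1C2 transcripts hold 6705 and 3756 bases. The first sequences below, coding bases 343 to 442, hold no difference between AKR1C1 and AKR1C2. Capitals mark bases that differ from AKR1C1.
AKR1C1: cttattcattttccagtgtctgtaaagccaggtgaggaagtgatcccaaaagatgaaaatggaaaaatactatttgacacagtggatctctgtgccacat
AKR1C2: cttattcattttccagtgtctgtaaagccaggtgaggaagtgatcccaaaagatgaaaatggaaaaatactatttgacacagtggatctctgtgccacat
AKR1C3: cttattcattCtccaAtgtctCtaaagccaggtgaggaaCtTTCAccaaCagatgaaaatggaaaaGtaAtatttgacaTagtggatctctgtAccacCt

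Coding bases 63 to 162, counted from the start codon, are the first window with the most differences between AKR1C1 and AKR1C2, 10 in all, against 11 between AKR1C1 and AKR1C3. They are shown because a read from this window can be assigned to 1 gene.
AKR1C1: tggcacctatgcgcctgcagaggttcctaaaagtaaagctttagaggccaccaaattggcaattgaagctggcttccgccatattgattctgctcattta
AKR1C2: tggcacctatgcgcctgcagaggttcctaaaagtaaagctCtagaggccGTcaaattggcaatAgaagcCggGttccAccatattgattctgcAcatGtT
AKR1C3: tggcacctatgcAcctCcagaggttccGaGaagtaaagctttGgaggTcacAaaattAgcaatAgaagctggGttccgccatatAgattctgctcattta

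Of the 873 windows of 100 bases in the AKR1C1 coding sequence, 183 occurred exactly in another aldo-keto reductase transcript, 167 of them in AKR1C2. The shares were 26.7% for AKR1C2, 9.7% for AKR1C3, 3.5% for AKR1B10 and 0.5% for AKR7A2, and no window of AKR1B1 or AKR1A1 was shared. The split between AKR1C1 and AKR1C2 is therefore uncertain. Their sum with AKR1C3 and AKR1C4 is given for high against low dose and for the medium and low doses against vehicle.

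Promoter sequences from RefSeq (GRCh38.p14) were matched for 6 members, all but AKR1B10. The 250 bases upstream of the RefSeq start of AKR1C1 and AKR1C2 aligned over 246 bases with 1 difference (99.6% identity), against 73.2% for AKR1C1 and AKR1C3. The core of the antioxidant response element was searched as TGACNNNGC and TGAGNNNGC on both strands. Starts here are those of the RefSeq table, and for AKR1C1, AKR1C2, AKR1C3, AKR1B1 and AKR1A1 they lie inside the GENCODE spans given above. The windows of AKR1C2, AKR1C3 and AKR1A1 lie wholly within those spans. In the windows of AKR1C1 and AKR1C2, 88 and 84 of the 250 bases come before the first GENCODE exon base in the window. AKR1C1 and AKR1C2 each held 1 match, 41 and 45 bases before the RefSeq start. Both matches come after that first GENCODE exon base, not before it. AKR7A2 held 3 matches, and the upstream bases of AKR1C3, AKR1B1 and AKR1A1 held none. Of 27305 promoters in the table, 6600 (24.2%) held a match, so a match is common and is a description of letters only. The stretches below show the first match of each gene in capitals, which reads as the motif on the opposite strand, and for AKR1C3 the bases aligned to that match of AKR1C1.
AKR1C1, chr10:4963364-4963393, forward strand: caggggcgttGCCAGCTCAttgctcttata
AKR1C2, chr10:5003883-5003912, reverse strand: caggggcgttGCCAGCTCAttgctcttata
AKR1C3, chr10:5048734-5048760, forward strand: gagggcattGCCTCCAttgattttata
AKR7A2, chr1:19312294-19312323, reverse strand: gtcaaggcccGCCGGGTCAgctgaccgcgc

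Levels are given as CPM, the rounded expected counts relative to each library's total over the tested genes after scaling with TMM factors. Library totals over all gene rows ran from 21570416 to 37707232. In vehicle, AKR1C1 lay at 287 ± 19.1 CPM (SD, n = 3) and AKR1C2 at 166.7 ± 5.44 CPM. AKR1A1 was at 78.5 ± 2.88, AKR1B1 at 73.6 ± 2.10, AKR7A2 at 44.9 ± 2.32, AKR1B10 at 42.5 ± 2.01 and AKR1C3 at 41.1 ± 2.20 CPM. Annotated transcripts differ in length, from 1362 bases for AKR7A2 to 6705 for AKR1C1. Per kilobase of transcript, AKR1C1 had 42.8 ± 2.84 CPM and AKR1B1 52.3 ± 1.49 CPM in vehicle, whereas per kilobase of coding sequence AKR1C1 had 295 ± 19.6 CPM and AKR1B1 77.4 ± 2.21 CPM. The order of levels between genes turned with the length used, so none is given. Summed over all 7 genes, the family took 711 to 749 CPM of each vehicle library and 1039 to 1220 CPM of each Palmul-tang high library. In a bulk library, more cells with a transcript and more transcript per cell cannot be told apart.

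All 9 hepatocyte markers, among them albumin and HNF4A, were above 0 in every library. Of the fibroblast markers, COL1A1 stood at 8.29 CPM in Sibjeondaebo-tang low replicate 3 against at most 0.615 CPM in the other 29 libraries, COL1A2 at 6.96 against at most 0.0341 CPM, and DCN at 1.90 against 0. The 10 fibroblast markers summed to 34.16 CPM there and to 3.969 to 7.625 CPM elsewhere, and the members' values against the Sibjeondaebo-tang low dose are also given without it where they were called. Reads from mitochondrial genes made up 12.4% to 14.5% of vehicle libraries and 11.2% to 19.7% of extract libraries, and their part in the results was not tested. Column prefixes in the labels differ between vehicle, the set of Samul-tang and Sagunja-tang, and the set of Palmul-tang and Sibjeondaebo-tang, while all titles name 1 batch. For any contrast with vehicle, and for Samul-tang against Palmul-tang, the label set and the treatment cannot be told apart. Comparisons of doses within a formula, and of Sibjeondaebo-tang with Palmul-tang, lie within 1 set.

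At the high dose, AKR1B10, AKR1C1 and AKR1C2 were higher than at the low dose in all 3 replicated formulas, whereas AKR1B1, AKR1A1 and AKR7A2 did not pass the test in any. With edgeR's quasi-likelihood test and Benjamini-Hochberg adjustment over all tested genes, 4 of the 7 members rose in Palmul-tang high against low, where 3.75% of all tested genes rose. None fell, where 3.03% of all genes fell. In Sibjeondaebo-tang 4 of 7 rose and 0 fell, against 10.4% and 9.44% of all genes. In Samul-tang 3 of 7 rose and 0 fell, against 0.709% and 0.715% of all genes. The median log2 fold change of the members was 0.37, 0.24 and 0.24 in these comparisons, beside 0.00, 0.02 and 0.00 over all tested genes. From medium to high dose, 4 members rose in Palmul-tang (1.16% of all genes rose), 5 in Sibjeondaebo-tang (5.04%) and 3 in Samul-tang (0.479%). These shares over all genes depend on which libraries, and how many, are in the fit. Leaving out 1 of the 2 libraries of a Samul-tang group leaves 1 in that group. The genes called in both directions between low and high dose numbered 1091 in Palmul-tang, 3191 in Sibjeondaebo-tang and 229 in Samul-tang, and with 1 library left out 702 to 834, 2042 to 2644 and 89 to 108. Between medium and high dose they numbered 364, 1786 and 156, and with 1 library left out 215 to 282, 1065 to 1437 and 37 (without Samul-tang high replicate 2) to 1818 (without Samul-tang medium replicate 3).

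AKR1B10, the retinal and lipid aldehyde reductase, had the largest rise of the 7 at the high dose. The vehicle libraries held 44.6, 40.7 and 42.2 CPM. Palmul-tang gave 39.1, 39.6 and 36.4 CPM at the low dose, 51.3, 47.5 and 44.3 CPM at the medium dose and 121.3, 108 and 126.3 CPM at the high dose. Each high-dose library therefore lay above every medium and low library, and the low-dose libraries all lay below vehicle. Sibjeondaebo-tang gave 37.8, 39.1 and 39.2 CPM, then 48.1, 44.8 and 47.3 CPM, then 102.4, 95.2 and 101.4 CPM. Samul-tang gave 38.7 and 42.2 CPM, then 53.3 and 56.5 CPM, then 111.1 and 119.4 CPM. No 2 doses of 1 formula overlapped in AKR1B10.

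From low to high dose, the log2 fold change of AKR1B10 was 1.63 ± 0.06 (SE) in Palmul-tang (adjusted p = 4.79e-19), 1.36 ± 0.06 in Sibjeondaebo-tang (6.53e-17) and 1.51 ± 0.07 in Samul-tang (2.26e-15). Without Sibjeondaebo-tang low replicate 3, the rise in that formula was 1.37 for AKR1B10 (adjusted p = 1.48e-14), 0.73 for AKR1C1 (7.52e-08) and 0.90 for AKR1C2 (5.81e-10). With all libraries, the AKR1B10 values are rises of 3.09, 2.57 and 2.85 times. Ordered by log2 fold change among all tested genes, AKR1B10 held rank 36 in Palmul-tang and rank 52 in both other formulas. The step from medium to high was the larger part, at 1.31 ± 0.06, 1.09 ± 0.06 and 1.07 ± 0.07. In a fit of its compared groups alone, the Samul-tang step from medium to high was not called (adjusted p = 0.0505 for AKR1B10, 0.163 for AKR1C1 and 0.136 for AKR1C2). From low to medium dose AKR1B10 rose by a log2 fold change of 0.31 ± 0.06 in Palmul-tang (adjusted p = 0.0107) and 0.44 ± 0.07 in Samul-tang (0.0088), and the value of 0.27 ± 0.06 in Sibjeondaebo-tang did not pass (0.0762). It was the 1 member called in that step in Palmul-tang, where 0.242% of all genes rose, and in Samul-tang, where 0.0187% rose. The genes called in both directions in that step ran from 16 (without Palmul-tang low replicate 2) to 40 with 1 library left out in Palmul-tang (45 with all), and from 1 (without Samul-tang low replicate 3) to 1943 (without Samul-tang medium replicate 3) in Samul-tang (4 with all). Sibjeondaebo-tang had 0 members called in that step (0.112% of all genes), 3 at an unadjusted p under 0.05, and DESeq2 called 1, AKR1B10, at an adjusted p of 0.0162. The low to medium call was lost in Palmul-tang without medium replicate 1 (adjusted p = 0.181), medium replicate 2 (0.0655) or low replicate 3 (0.161). It was lost in Samul-tang without low replicate 2 (0.133) or low replicate 3 (0.0576), and in a fit of its compared groups alone (0.976).

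**Figure D1:**
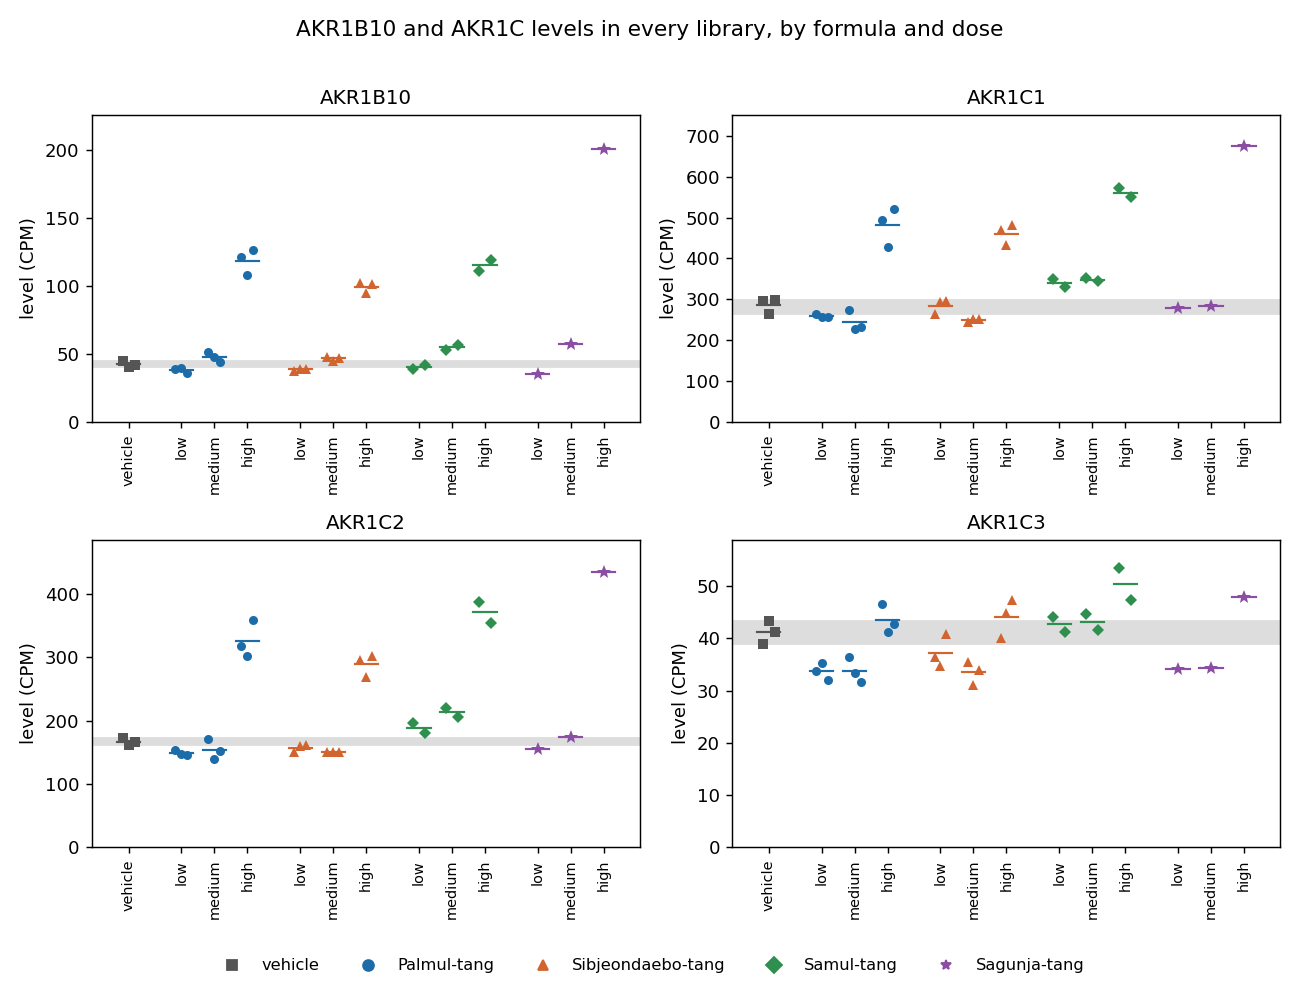
Levels of AKR1B10, AKR1C1, AKR1C2 and AKR1C3 in CPM (y axis) in each of the 30 libraries (points) by formula and dose (x axis), with the group mean as a line and the range of the 3 vehicle libraries as a grey band. High-dose libraries stood above all other libraries of their formula for AKR1B10, AKR1C1 and AKR1C2, and the Sagunja-tang high library was the highest for these 3 genes at 201.3, 673.8 and 435.1 CPM.

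AKR1C1, which inactivates progesterone, rose at the high dose with no called step from low to medium. The vehicle libraries held 296.8, 264.8 and 298.7 CPM. Palmul-tang gave 264.1, 257.3 and 257 CPM at the low dose, 274.6, 227.1 and 232.3 CPM at the medium dose and 493.3, 429 and 522 CPM at the high dose. In Sibjeondaebo-tang the values were 263.9, 292.4 and 295.8 CPM, then 244.1, 251.3 and 252.6 CPM, then 468.9, 432.4 and 480.6 CPM. The medium-dose libraries of both formulas thus lay at or below their low-dose libraries, apart from Palmul-tang medium replicate 1, and the high-dose libraries above both. Samul-tang gave 348.9 and 329.2 CPM, then 352.4 and 343.6 CPM, then 571 and 550.9 CPM. All 6 Samul-tang libraries lay above vehicle.

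From low to high dose, AKR1C1 rose by a log2 fold change of 0.89 ± 0.07 in Palmul-tang (adjusted p = 1.27e-10), 0.70 ± 0.07 in Sibjeondaebo-tang (7.53e-09) and 0.73 ± 0.08 in Samul-tang (1.6e-06). From low to medium dose it gave -0.085 ± 0.067, -0.19 ± 0.07 and 0.04 ± 0.08, and none of these passed (adjusted p = 0.973, 0.52 and 0.898). The Sibjeondaebo-tang value passed in a fit of its compared groups alone (0.0346) and with no filter on low counts (0.0385).

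AKR1C2, which inactivates dihydrotestosterone, had a larger fold change than AKR1C1 from low to high dose in each formula, a difference that was not tested. The vehicle libraries held 172.6, 161.8 and 165.8 CPM. Palmul-tang gave 153.3, 147 and 145.8 CPM at the low dose, 170.4, 138.8 and 152.4 CPM at the medium dose and 317.3, 301.7 and 358.8 CPM at the high dose. Sibjeondaebo-tang gave 150.3, 160 and 160.9 CPM, then 149.8, 150 and 150.2 CPM, then 296.5, 268.3 and 302.7 CPM. In both formulas the low and medium libraries lay in 1 band, and the high mean stood at 2.19 and 1.84 times the low mean. Samul-tang gave 196.9 and 179.9 CPM, then 220.1 and 206.4 CPM, then 387.1 and 354.9 CPM. The log2 fold change from low to high dose was 1.13 ± 0.06 in Palmul-tang (adjusted p = 9.65e-14), 0.88 ± 0.06 in Sibjeondaebo-tang (1.29e-11) and 0.98 ± 0.08 in Samul-tang (8.38e-10).

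The ratio of AKR1C2 to AKR1C1 rose in order of dose in each formula. It was 0.567 to 0.580 in Palmul-tang low, 0.611 to 0.656 in medium and 0.643 to 0.703 in high libraries. Sibjeondaebo-tang gave 0.544 to 0.569, 0.595 to 0.614 and 0.621 to 0.633, and Samul-tang 0.546 to 0.564, 0.601 to 0.625 and 0.644 to 0.678. Low and high libraries did not overlap in any formula, and only Palmul-tang medium and high overlapped among neighbouring doses. Vehicle libraries spread from 0.555 to 0.611, across the low and part of the medium range. The ratio was not tested. A total of 167 windows of AKR1C1 recur in AKR1C2, as in the first sequences above, and the part of the authors' division of reads in this shift was not tested.

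**Figure D2:**
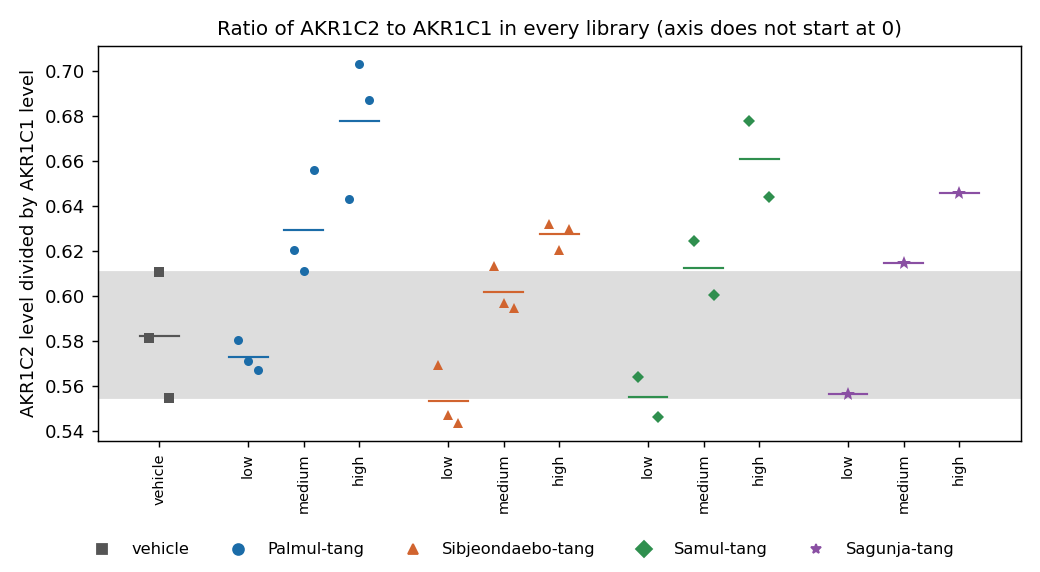
AKR1C2 level divided by AKR1C1 level (y axis, not starting at 0) in each library (points) by formula and dose (x axis), with group means as lines and the range of the vehicle libraries as a grey band. High-dose libraries lie at 0.6205 or above and low-dose libraries at 0.5802 or below, and the vehicle libraries reach from 0.555 to 0.611.

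AKR1C3, which acts on androstenedione and prostaglandins, had the smallest fold changes of the 3 AKR1C genes from low to high and from medium to high dose. The vehicle libraries held 38.9, 43.3 and 41.3 CPM. Palmul-tang gave 33.7, 35.3 and 32.1 CPM at the low dose, 36.5, 33.3 and 31.7 CPM at the medium dose and 46.6, 41.2 and 42.8 CPM at the high dose. The low and medium libraries lay below every vehicle library, and the high libraries among or above them. Sibjeondaebo-tang gave 36.5, 34.6 and 40.7 CPM, then 35.4, 31.1 and 33.9 CPM, then 40.1, 44.8 and 47.4 CPM. The low value of 40.7 CPM is that of the library with fibroblast markers, and it was the only low library to overlap the high ones. Samul-tang gave 44.1 and 41.3 CPM, then 44.7 and 41.6 CPM, then 53.4 and 47.3 CPM.

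AKR1C3 rose from low to high dose by a log2 fold change of 0.37 ± 0.07 in Palmul-tang (adjusted p = 0.000862) and 0.24 ± 0.07 in Sibjeondaebo-tang (0.0138). The value of 0.24 ± 0.09 in Samul-tang did not pass (0.231). Without Sibjeondaebo-tang low replicate 3 the value was 0.31 (adjusted p = 0.00544), and the Sibjeondaebo-tang call was lost without high replicate 2 (0.0811), high replicate 3 (0.166), low replicate 1 (0.0557) or low replicate 2 (0.167). The share of AKR1C3 in the sum of AKR1C1, AKR1C2 and AKR1C3 was 7.65% to 9.21% in vehicle and 4.63% to 5.44% in Palmul-tang high libraries. It was 4.98% to 6.00% in Sibjeondaebo-tang high and 4.96% to 5.28% in Samul-tang high libraries, below all vehicle libraries. With AKR1C1 to AKR1C4 summed into 1 row, which removes the division of reads among them, the log2 fold change from low to high dose was 0.95 ± 0.06 in Palmul-tang, 0.73 ± 0.06 in Sibjeondaebo-tang and 0.78 ± 0.08 in Samul-tang (adjusted p = 2.51e-12, 2.56e-10 and 4.85e-08).

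AKR1B1, AKR1A1 and AKR7A2 moved within narrow bands. Over the 13 group means, the highest AKR1B1 level was 1.35 times the lowest, against 1.21 for AKR1A1 and 1.197 for AKR7A2. AKR1C3 was close to these at 1.504, and AKR1B10 stood at 5.68. Both extremes of AKR1B10 are single libraries, Sagunja-tang low and Sagunja-tang high. Among groups with replicates its extremes were Palmul-tang low and Palmul-tang high, at 38.38 and 118.5 CPM, a ratio of 3.09. AKR1B1 gave 58.7, 58.7 and 56.0 CPM in Palmul-tang low and 61.3, 56.9 and 66.3 CPM in Palmul-tang high libraries, with overlap. Its log2 fold change from low to high dose was 0.09 ± 0.06 in Palmul-tang, 0.10 ± 0.06 in Sibjeondaebo-tang and 0.10 ± 0.07 in Samul-tang (adjusted p = 0.461, 0.261 and 0.736). From medium to high dose it rose by 0.20 ± 0.06 in Sibjeondaebo-tang (adjusted p = 0.0281), where the libraries went from 58.2, 52.0 and 53.5 CPM to 62.6, 65.2 and 59.7 CPM. That call was lost with median-ratio factors (0.0522), with no filter (0.0518) and without Sibjeondaebo-tang high replicate 1 (0.0675), high replicate 2 (0.205), medium replicate 2 (0.148) or medium replicate 3 (0.104). The ratio of AKR1B10 to AKR1B1, neighbours on chromosome 7, was 0.556 to 0.588 in vehicle and 1.90 to 1.98 in Palmul-tang high libraries.

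**Figure D3:**
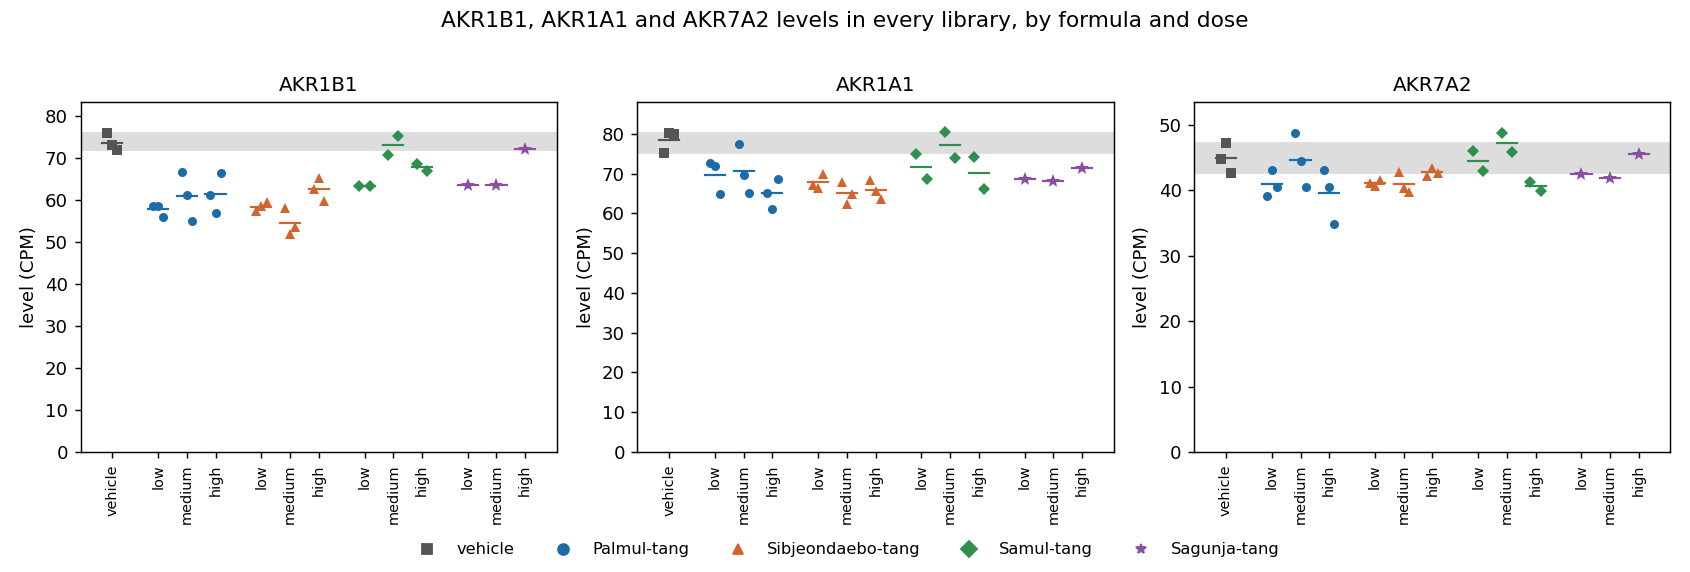
Levels of AKR1B1, AKR1A1 and AKR7A2 in CPM (y axis, from 0) in each of the 30 libraries (points) by formula and dose (x axis), with the group mean as a line and the range of the vehicle libraries as a grey band. AKR1B1 lies between 52.0 and 76.0 CPM, AKR1A1 between 61.2 and 80.5 CPM and AKR7A2 between 34.9 and 48.8 CPM in all libraries.

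Against vehicle, the same 3 genes rose at the high doses, while AKR1B1 and AKR1A1 were lower in Palmul-tang and Sibjeondaebo-tang. Palmul-tang high called 3 members higher (16.3% of all genes) and 3 lower (15.6%). Sibjeondaebo-tang high called 3 higher (19.3%) and 2 lower (16.7%), and Samul-tang high 4 higher (9.82%) and 0 lower (8.69%). With any 1 library left out, fewer genes were called in each of these 3 comparisons than with all libraries (5118, 5791 and 2978). All 9 comparisons with vehicle share the same 3 vehicle libraries. AKR1B10 was higher by a log2 fold change of 1.48 ± 0.06 in Palmul-tang high (adjusted p = 3.89e-18), 1.23 ± 0.06 in Sibjeondaebo-tang high (5.14e-16) and 1.44 ± 0.06 in Samul-tang high (1.11e-16). AKR1C2 was higher by 0.97 ± 0.06, 0.79 ± 0.06 and 1.15 ± 0.07, and AKR1C1 by 0.75 ± 0.07, 0.68 ± 0.07 and 0.97 ± 0.07. AKR1C3 gave 0.08 ± 0.07 and 0.10 ± 0.07 in the first 2 formulas (adjusted p = 0.407 and 0.294) and was higher by 0.29 ± 0.08 in Samul-tang high (0.00861), a call that was lost without Samul-tang high replicate 2 (0.238).

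AKR1B1, aldose reductase, was lower than vehicle at every dose of Palmul-tang and Sibjeondaebo-tang, by log2 fold changes from -0.24 ± 0.06 in Sibjeondaebo-tang high (adjusted p = 0.00201) to -0.43 ± 0.06 in Sibjeondaebo-tang medium (2.81e-06). Vehicle held 76.0, 73.1 and 71.8 CPM, and all libraries of both formulas lay at or below 66.61 CPM. These 6 calls held without any 1 library. In Samul-tang the values were -0.12 ± 0.06, -0.01 ± 0.06 and -0.22 ± 0.07 at the high, medium and low dose, and the low dose passed (adjusted p = 0.0282). That call was lost without vehicle replicate 1 (0.09), vehicle replicate 2 (0.062), Samul-tang low replicate 2 (0.139) or Samul-tang low replicate 3 (0.158). AKR1A1, aldehyde reductase, was lower by 0.27 ± 0.06 in Palmul-tang high (-0.27, adjusted p = 0.000992) and by 0.25 ± 0.06 in Sibjeondaebo-tang high (-0.25, 0.00172). AKR7A2 was lower in Palmul-tang high alone among the 9 comparisons, at -0.18 ± 0.06 (0.0316), with libraries at 43.1, 40.5 and 34.9 CPM overlapping vehicle at 44.8, 47.3 and 42.6 CPM. That call was lost without Palmul-tang high replicate 2 (0.0516), Palmul-tang high replicate 3 (0.248), vehicle replicate 1 (0.0613) or vehicle replicate 2 (0.156).

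At the medium and low doses few members were higher than vehicle. Palmul-tang medium called 1 member higher (11.6% of all genes) and 3 lower (10.8%), and Palmul-tang low 0 higher (11.5%) and 3 lower (11.7%). Sibjeondaebo-tang medium called 0 higher (15.3%) and 4 lower (14.8%), and Sibjeondaebo-tang low 0 higher (11.5%) and 2 lower (11.5%). Samul-tang medium called 3 higher (10.3%) and 0 lower (9.57%), and Samul-tang low 1 higher (6.47%) and 1 lower (4.79%). With 1 library left out, the genes called in both directions ran from 730 (without Samul-tang medium replicate 2) to 4687 (without Samul-tang medium replicate 3) for Samul-tang medium (3188 with all) and from 602 (without Samul-tang low replicate 3) to 1436 for Samul-tang low (1811 with all), and fell by more than 1.5 times also without low replicate 2 or vehicle replicate 2. AKR1C3 was lower in Palmul-tang medium and low and in Sibjeondaebo-tang medium, at -0.29 ± 0.07, -0.29 ± 0.07 and -0.30 ± 0.07 (adjusted p = 0.00454, 0.00396 and 0.00212). AKR1C1 was lower by 0.23 ± 0.07 in Palmul-tang medium (-0.23, adjusted p = 0.0138) and higher by 0.28 ± 0.07 in Samul-tang medium (0.00793). The Palmul-tang call was lost without medium replicate 2 (0.101), medium replicate 3 (0.0921), vehicle replicate 1 (0.0598) or vehicle replicate 3 (0.0642), and the Samul-tang call without medium replicate 2 (0.14) or vehicle replicate 2 (0.051) and in a fit of the compared groups alone (0.0839). In Sibjeondaebo-tang medium AKR1C1 was lower by a log2 value of -0.20 ± 0.07 (0.0231), a call lost without medium replicate 1 (0.076), medium replicate 2 (0.0522), vehicle replicate 1 (0.0868) or vehicle replicate 3 (0.0943). In Samul-tang low it was higher by 0.24 ± 0.07 (0.0327), a call lost without low replicate 2 (0.247), low replicate 3 (0.0959) or vehicle replicate 2 (0.156). With AKR1C1 to AKR1C4 summed into 1 row, Palmul-tang medium gave -0.19 ± 0.06 (adjusted p = 0.0222) and Sibjeondaebo-tang medium -0.19 ± 0.06 (0.0178). The sum gave 0.29 ± 0.07 in Samul-tang medium (0.00305) and 0.20 ± 0.07 in Samul-tang low (0.0492). It gave -0.16 ± 0.06 in Palmul-tang low (0.0539) and -0.05 ± 0.06 in Sibjeondaebo-tang low (0.622), and neither passed.

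In Samul-tang medium, AKR1B10 was higher than vehicle by 0.37 ± 0.07 (adjusted p = 0.000227) and AKR1C2 by 0.36 ± 0.07 (0.000617). In Palmul-tang medium AKR1B10 was higher by 0.17 ± 0.06 (0.0475), a call lost without medium replicate 1 (0.218), medium replicate 2 (0.0839), vehicle replicate 2 (0.191) or vehicle replicate 3 (0.104). AKR1A1 was lower in Sibjeondaebo-tang medium at -0.27 ± 0.06 (0.00122), in Sibjeondaebo-tang low at -0.21 ± 0.06 (0.0122) and in Palmul-tang low at -0.17 ± 0.06 (0.0406). Without Sibjeondaebo-tang low replicate 3, AKR1A1 stood at -0.23 (0.0209) and AKR1B1 at -0.35 (0.000745) in Sibjeondaebo-tang low. The Sibjeondaebo-tang low call of AKR1A1 was lost without low replicate 2 (0.0653) or vehicle replicate 2 (0.0585). The Palmul-tang low call was lost with DESeq2 (0.0613), with median-ratio factors (0.0594), with no filter (0.066) and without low replicate 3 (0.237), vehicle replicate 2 (0.132) or vehicle replicate 3 (0.109). At the low dose, AKR1B10 gave -0.15 ± 0.06, -0.13 ± 0.06 and -0.07 ± 0.07 in Palmul-tang, Sibjeondaebo-tang and Samul-tang, and none passed (adjusted p = 0.0845, 0.116 and 0.579).

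**Figure D4:**
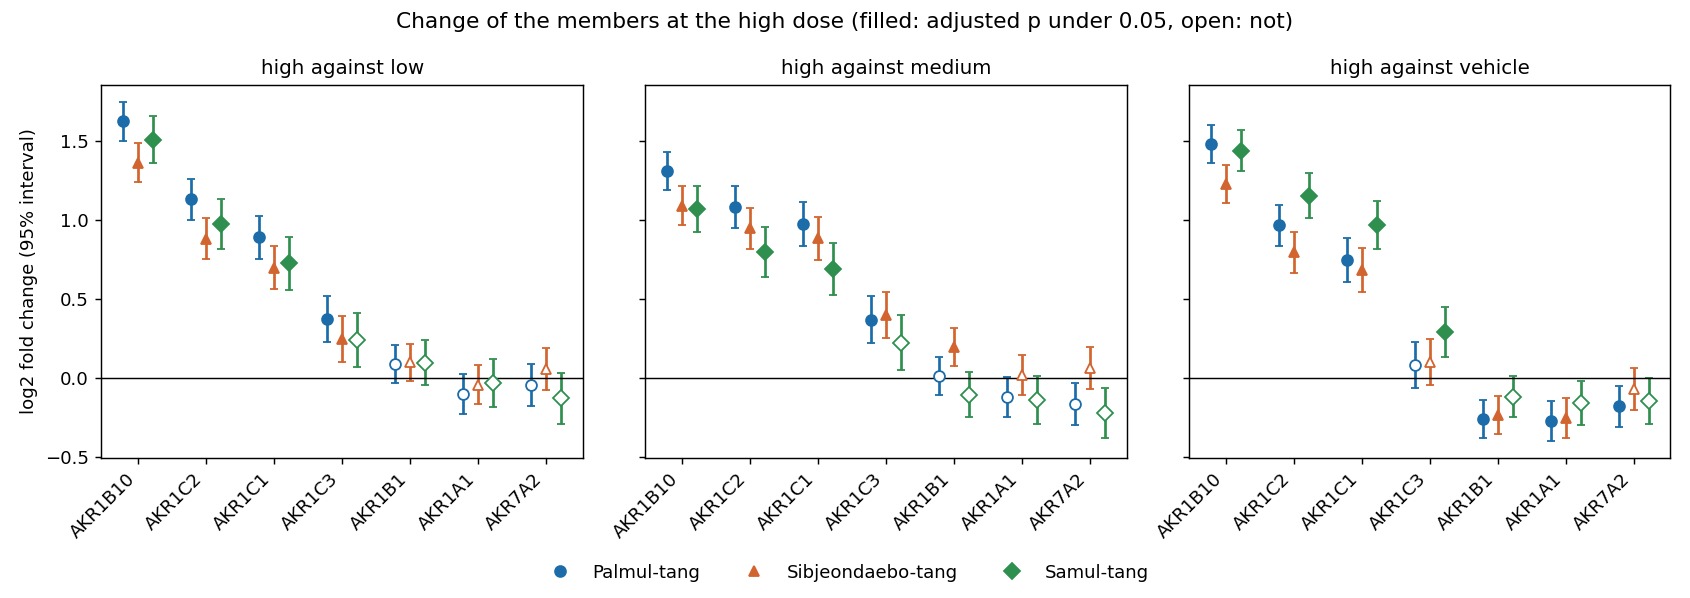
Log2 fold change (y axis, with the 95% interval) of each member (x axis) at the high dose against the low dose, the medium dose and vehicle, in the 3 replicated formulas, from edgeR's quasi-likelihood test. Filled symbols passed an adjusted p of 0.05. AKR1B10, AKR1C2 and AKR1C1 are filled in all 9 sets, and AKR1B1, AKR1A1 and AKR7A2 lie near 0 against low and below 0 against vehicle in most.

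Between formulas at the same dose, AKR1B10 was the 1 member that passed, in 1 of 4 comparisons. It was lower in Sibjeondaebo-tang high than in Palmul-tang high, at a log2 fold change of -0.25 ± 0.06 (95% interval -0.37 to -0.13, adjusted p = 0.0046), and the libraries at 95.2 to 102.4 CPM and at 108 to 126.3 CPM did not overlap. In that comparison 4.72% of all genes were lower. AKR1C2 gave -0.17 ± 0.06 (interval -0.30 to -0.04, adjusted p = 0.102) and AKR1C1 -0.06 ± 0.07 (interval -0.20 to 0.07, 0.649), which did not pass. AKR1C2 passed without Palmul-tang high replicate 2 (0.0318) and with no filter (0.0104). At the medium dose 0 members and 0.0311% of all genes differed between these formulas, with 1 member at an unadjusted p under 0.05. At the low dose 0 members and 0 of all genes differed, with 0 members at an unadjusted p under 0.05, and DESeq2 called 0 members at either dose. Samul-tang high against Palmul-tang high called 0 members (0.187% of all genes) and 0 by DESeq2. In it 4 members had an unadjusted p under 0.05, namely AKR1C1, AKR1C2, AKR1C3 and AKR1B1. In that pair AKR1B10 gave -0.04 ± 0.06 (interval -0.17 to 0.09) and AKR1C1 0.22 ± 0.07 (interval 0.07 to 0.37, adjusted p = 0.366). With no filter AKR1C1 passed there (0.0148).

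The rise from low to high dose was also compared between formulas. The rise of AKR1B10 was smaller in Sibjeondaebo-tang than in Palmul-tang by 0.26 on the log2 scale (-0.26 ± 0.08, interval -0.43 to -0.09), which did not pass (adjusted p = 0.119). It passed in a fit of the compared groups alone (0.0417), with no filter (0.0405) and without Palmul-tang high replicate 2 (0.0188). The difference was -0.12 ± 0.09 for Samul-tang against Palmul-tang and 0.14 ± 0.09 for Samul-tang against Sibjeondaebo-tang (adjusted p = 1 and 0.589). None of the 7 members passed in these 3 tests, in which 2%, 0.0124% and 1.68% of all genes did, and 3, 0 and 0 members had an unadjusted p under 0.05. DESeq2 called 0 members in each.

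Sagunja-tang, with 1 library per dose, gave the highest values of the series for AKR1B10, AKR1C1 and AKR1C2. AKR1B10 stood at 35.5 CPM (95% exact interval 33.1 to 37.9) at the low dose, 57.3 CPM (54.6 to 60.1) at the medium dose and 201.3 CPM (196 to 206.7) at the high dose. These intervals cover counting error only, and without replicates there is no test. The log2 ratio of high to low was 2.50 for AKR1B10, 1.48 for AKR1C2, 1.27 for AKR1C1 and 0.49 for AKR1C3. AKR1C1 stood at 279.5, 283.9 and 673.8 CPM in order of dose, so its rise came between the medium and the high dose, as in the replicated formulas. AKR1C2 stood at 155.6, 174.5 and 435.1 CPM and AKR1C3 at 34.1, 34.2 and 47.8 CPM. The 3 remaining members had log2 ratios of 0.18 (AKR1B1), 0.10 (AKR7A2) and 0.06 (AKR1A1) from low to high. Against the vehicle mean, AKR1B10 at the high dose had a log2 ratio of 2.24, and 2.16 with library totals in place of TMM factors.

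Of 10 other genes of the superfamily, AKR1D1, the steroid reductase of bile acid synthesis, and KCNAB2, a potassium channel subunit, were above 2 CPM. AKR1D1 ran from 17.5 to 27.2 CPM and fell in Palmul-tang high against low by 0.24 on the log2 scale (-0.24 ± 0.06, adjusted p = 0.00852). It was the 1 gene of this list called in the 3 comparisons of high with low dose. AKR1B15 reached at most 0.184 CPM and AKR1C4 at most 0.224 CPM, so these close copies took few reads from AKR1B10 and the AKR1C genes under the authors' division of reads. AKR1E2 had no count in any library.

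Genes of connected pathways were counted for the comparisons of high with low dose in Palmul-tang, Sibjeondaebo-tang and Samul-tang, in this order. The counts stand beside 3.75%, 10.4% and 0.709% of all genes that rose and 3.03%, 9.44% and 0.715% that fell. Of 12 NRF2 targets outside the family, 11 were tested, and 9 rose in Palmul-tang, 10 in Sibjeondaebo-tang and 9 in Samul-tang, with none lower. NQO1, a quinone reductase, rose by 1.02 ± 0.05, 0.88 ± 0.05 and 0.75 ± 0.06, and GCLM, a subunit of the enzyme that starts glutathione synthesis, by 0.82 ± 0.07, 0.75 ± 0.07 and 0.72 ± 0.08. The median log2 fold change of this list was 0.56, 0.47 and 0.44, beside the medians of all genes given above. OSGIN1, an oxidative stress-induced growth inhibitor, rose by 0.79 ± 0.06, 0.47 ± 0.06 and 0.57 ± 0.07, and SRXN1, sulfiredoxin, by 0.59 ± 0.04, 0.58 ± 0.04 and 0.46 ± 0.05. The AKR1B10 values of 1.63, 1.36 and 1.51 stood above those of these 4 genes. Of 10 carbonyl reductases of the short-chain dehydrogenase family, 1, 2 and 0 rose and 0, 1 and 0 fell. CBR1, which reduces quinones and prostaglandins, rose by 0.31 ± 0.07 in Palmul-tang and 0.28 ± 0.07 in Sibjeondaebo-tang.

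Among 14 aldehyde and alcohol dehydrogenases tested, 2 rose and 2 fell in Palmul-tang, 3 rose and 1 fell in Sibjeondaebo-tang, and 2 rose and 1 fell in Samul-tang. ALDH3A1, which oxidises lipid aldehydes, rose from 1.37 to 5.55 CPM in Palmul-tang, by 2.03 ± 0.15 (adjusted p = 4.8e-11), and ADH4, an alcohol and retinol dehydrogenase, fell by 0.35 on the log2 scale (-0.35 ± 0.06). Of 14 steroid conversion genes, 1 rose and 2 fell, 2 rose and 2 fell, and 0 rose and 1 fell in the 3 formulas. SULT2A1, which adds sulfate to steroids, fell in each, at -0.44 ± 0.05, -0.44 ± 0.05 and -0.34 ± 0.06. Of 5 prostaglandin genes tested, 1, 3 and 1 rose, and PTGR1, a reductase of prostaglandins and unsaturated carbonyls, rose in each, by 0.87 ± 0.08, 0.75 ± 0.08 and 0.68 ± 0.10.

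Genes that act beside AKR1B1 and AKR1A1 in sugar metabolism were counted the same way. Of 7 polyol and fructose genes tested, 1 rose and 1 fell in Palmul-tang and in Sibjeondaebo-tang, and 0 rose and 1 fell in Samul-tang. GLYCTK, a glycerate kinase, fell in Sibjeondaebo-tang at -0.32, and SLC2A2, a glucose and fructose transporter, fell in Palmul-tang at -0.19 and in Samul-tang at -0.30. SORD, sorbitol dehydrogenase, the next enzyme after AKR1B1, had values of -0.01 ± 0.05, -0.01 ± 0.05 and -0.06 ± 0.06, and none passed. Of 7 glucuronate genes, UGDH, which makes UDP-glucuronate, rose in each formula, by 0.40 ± 0.06, 0.31 ± 0.06 and 0.30 ± 0.07, and it was the 1 gene of the list to rise, while 1 fell in Palmul-tang. None of 9 retinoid conversion genes tested passed in any of the 3 comparisons. Of the 9 hepatocyte markers, 0, 1 and 0 rose and 4, 4 and 1 fell. Of the fibroblast markers 2 were tested, and 1, 2 and 1 fell. PDGFRB fell in each formula, at -0.64 ± 0.10, -0.45 ± 0.09 and -0.43 ± 0.11. COL1A1 fell in Sibjeondaebo-tang at -4.03 ± 1.14 (adjusted p = 0.0185), and without low replicate 3 it stood at -0.33 ± 0.54 (0.743), which leaves PDGFRB as the 1 marker that fell there. Without that library PDGFRB no longer passed in Samul-tang (0.0543). None of 2 endothelial markers tested passed, and of 3 leukocyte markers 1, 1 and 0 rose. The part of these markers in the members' values was not tested.

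**Figure D5:**
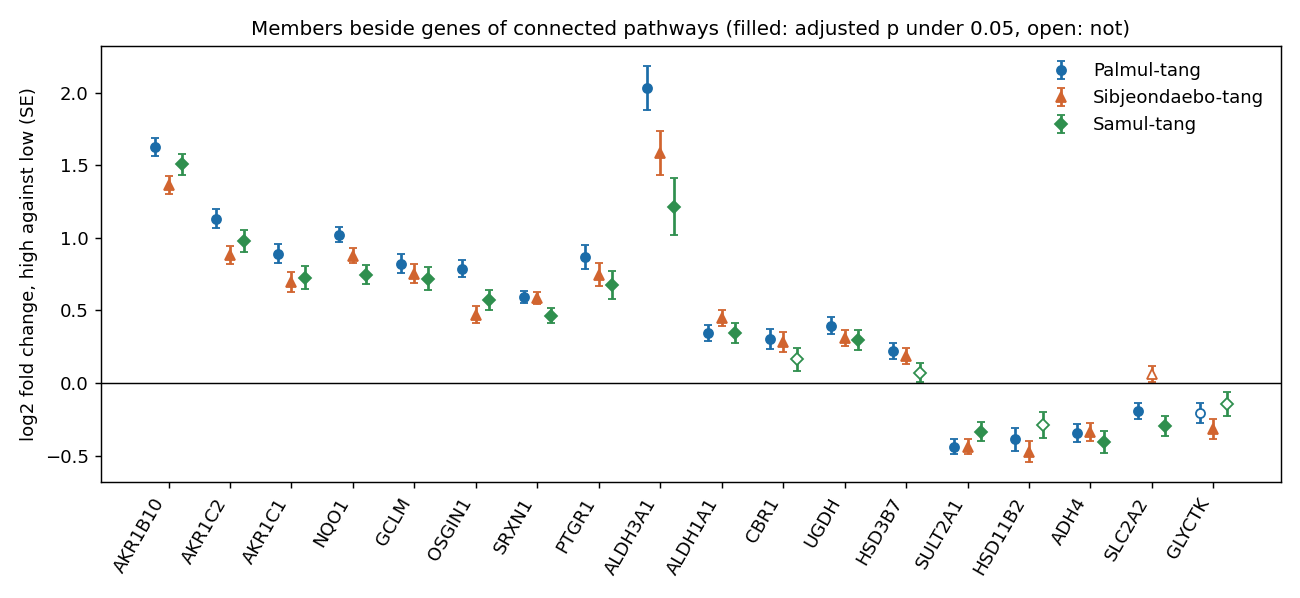
Log2 fold change of high against low dose (y axis, with SE) in the 3 replicated formulas for 3 members and for genes of connected pathways (x axis). Filled symbols passed an adjusted p of 0.05. AKR1B10 lies at 1.36 to 1.63, above NQO1 at 0.75 to 1.02, and ALDH3A1 at 1.22 to 2.03 has the widest spread between formulas.

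Every r given here rests on the same libraries and the same order of doses, and is a description only. The Sagunja-tang means are single libraries and hold the lowest and highest AKR1B10 values (35.45 and 201.3 CPM). Across the means of the 13 groups, 10604 named genes were ranked by Pearson's r with AKR1B10 on the log2 scale. The closest were GCLM (r = 0.994) and NQO1 (0.994), followed by CPLX2 (0.981), TSKU (0.980), GCLC (0.980), PSMD11 (0.977), PTGR1 (0.977) and SRXN1 (0.9745). Among the members AKR1C2 gave r = 0.962 with AKR1B10, AKR1C1 0.930 and AKR1C3 0.741, while AKR1B1 gave 0.369, AKR7A2 -0.03 and AKR1A1 -0.18. The genes nearest to AKR1C1, members left out, were PTGR1 (0.962), OSGIN1 (0.957), BLVRB (0.938), CBR1 (0.935), SQSTM1 (0.932), ALDH1A1 (0.930), TALDO1 (0.926) and LURAP1L (0.926). The pair of AKR1C1 and AKR1C2 gave 0.991, which includes the reads divided between them.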

How the data were processed

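RNA was sequenced from 30 HepG2 libraries as 100 bp paired-end reads of a directional kit, per the labels' protocols. The authors deposited expected counts per gene, and the submitters' processing notes name RSEM 1.3.3, STAR 2.7.3a, GRCh38, FastQC 0.11.9 and Trim Galore 0.6.5. Which annotation release they used is not stated in the sources used here. Of the values 8.56% were not whole (RSEM divides reads among similar transcripts), and 240 columns of no sample used here were not read. Counts were rounded. edgeR 4.0.16 (R 4.3.3; filterByExpr, minimum count 10, TMM factors, robust quasi-likelihood fit of 27 libraries in 10 groups, 17 residual degrees of freedom, biological coefficient of variation 5.47%) tested 25 comparisons two-sided, with Benjamini-Hochberg adjustment over 16083 genes and a threshold of 0.05. SE is the absolute log2 fold change over the square root of F. Sagunja-tang ratios used a prior count of 2. The members and the 13 lists beside them were chosen with earlier results of these data known. All members were tested in every comparison, but not every value is printed. Of each list up to 4 genes are named by smallest adjusted p in any high against low comparison, or any gene of a list of 10 or fewer. The genes nearest to AKR1B10 and AKR1C1 are the 8 with the highest r and a mean log2 CPM of 2 or more. Alternatives were DESeq2 1.42.0, median-ratio factors, no filter, summed paralogs, the compared groups alone, a replicate block and each library left out. Symbols matched 41209 rows. The fit was tested on simulated data for Palmul-tang high against low, with changed genes drawn from all tested genes at any level. It recovered 28% of changes of 1.2 times, 56% of 1.5 times, 70% of 2 times and 90% of 3 times. Of 15883 unchanged genes 6 were called. Small changes can thus be missed, and the shares for genes at the members' levels were not tested. Replicate pairs all differed by more than counting noise. The squared difference over its counting variance, averaged over genes, was 30.9 for the 2 Samul-tang medium libraries. It was 2.92 to 18.8 for all other pairs. The Samul-tang medium values rest on the pair that differed most.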

Additional observations from a re-analysis of the deposited data

How the results depend on the processing

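Across all alternatives no member's fold change past the threshold turned its direction. Without a filter on low counts, 2 members were called in Sibjeondaebo-tang medium against low, 2 in Sibjeondaebo-tang against Palmul-tang at the high dose, 1 in Samul-tang against Palmul-tang at the high dose and 2 in the difference of dose effects between Sibjeondaebo-tang and Palmul-tang. Fitted without the other groups, the counts were 5 in Palmul-tang low and 4 in Sibjeondaebo-tang low against vehicle, 0 in Samul-tang high against medium, 2 in Sibjeondaebo-tang medium against low, 0 in Samul-tang medium against low and 1 in the difference of dose effects between Sibjeondaebo-tang and Palmul-tang. With paralogs summed, Samul-tang low against vehicle counted 4, since AKR1C1, AKR1C2 and AKR1C3 then share 1 value. DESeq2 called 1 member in Sibjeondaebo-tang medium against low. With 1 library left out, members called ranged from 2 to 5 in Palmul-tang medium, 1 to 2 in Sibjeondaebo-tang low and 0 to 2 in Samul-tang low against vehicle, from 0 to 1 in the step from low to medium in Palmul-tang and in Samul-tang, from 1 to 2 in Sibjeondaebo-tang against Palmul-tang at the high dose and from 0 to 1 in the difference of dose effects between them. The cause of these changes was not tested.

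The replicate block called 1 member (AKR1B10, adjusted p = 0.0271) in Sibjeondaebo-tang medium against low and changed no other member's call. The correlation of deviations from the group means had a median of 0.0234 over 63 same-numbered pairs, with 3 above 0.1, so the numbers were not taken as pairing the libraries, and of -0.00561 over 126 pairs of different numbers. Among extract libraries the medians were 0.0309 and -0.0181, and 12 of 18 correlated best with their own number, a hint from the data. The middle part of each column name also repeats the replicate number across formulas and doses. What that number stands for is not given in the labels.

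Over all genes, counts moved by more than 1.5 times without a filter in Samul-tang high against low (229 to 376) and high against medium (156 to 495), in low to medium steps (45 to 163 in Palmul-tang, 18 to 174 in Sibjeondaebo-tang, 4 to 348 in Samul-tang), between formulas (5 to 168 at medium and 0 to 72 at low dose for Sibjeondaebo-tang, 30 to 261 for Samul-tang) and in differences of dose effects (322 to 562, 2 to 85 and 270 to 543). DESeq2 gave 307 for Samul-tang high against medium, 74, 52 and 118 for the low to medium steps, and 24 and 52 between formulas. The block gave 24 for Samul-tang medium against low and 26 and 46 between formulas. The compared groups alone gave 261 in place of 3188 for Samul-tang medium against vehicle, 0 for Samul-tang high against medium, 106 and 2 for low to medium in Sibjeondaebo-tang and Samul-tang, 3 at low dose between Sibjeondaebo-tang and Palmul-tang, and 406 for the Samul-tang and Sibjeondaebo-tang dose effects. Median-ratio factors gave 1 in place of 2 for the Samul-tang and Palmul-tang dose effects. They moved the share of called genes that were higher from 45.4% to 33.4% in Sibjeondaebo-tang high against medium and from 27.1% to 14.5% in Sibjeondaebo-tang against Palmul-tang at the high dose. Without a filter that share went from 52.4% to 39.8% in Sibjeondaebo-tang high against low, from 49.8% to 61.2% and from 49.4% to 65.3% in Samul-tang high against low and medium, from 86.7% to 59.5% in Palmul-tang medium against low, from 2.48% to 14.1% in the Sibjeondaebo-tang and Palmul-tang dose effects, and from 27.1% to 17% and 23.3% to 64.4% in Sibjeondaebo-tang and Samul-tang against Palmul-tang at the high dose. Of 154 leave-one-out counts, 59 moved. Among Sagunja-tang ratios, 12 of 42 moved with library totals in place of TMM factors.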
